A study of Homo sapiens with 18 samples.

Results

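The genes described here are 47 interferon-stimulated genes, taken from a fixed list of symbols and looked up in a table of 20833 human genes. All 47 were in the table. The list of symbols was drawn up with earlier results of these data known. RNA was sequenced from MEG-01, a human megakaryoblastic leukemia line, in 18 libraries collected 3 days after lentiviral transduction. Unedited cells (genotype label WT) and ETV6 knockout cells (ETV6-KO) each received an empty vector (EV), a vector with wild-type ETV6, or a vector with ETV6 carrying R369W, and every group held 3 libraries. All 6 groups therefore had been through lentiviral transduction, and no library came from cells without a virus. The titles number the unedited libraries 2, 3 and 4 and the knockout libraries 1, 2 and 4. The series text calls them biological replicates, but the sources used here do not say what the numbers stand for, or whether each is a separate culture or a knockout clone. The p-values below measure the spread between these libraries, which may be partly technical.

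Interferons are secreted proteins that cells release on sensing viral nucleic acids, and they act through receptors coupled to JAK kinases. The kinases phosphorylate STAT proteins, STAT2 among them, and a complex of STAT2 with IRF9 binds the interferon-stimulated response element (ISRE) in promoters. STAT pairs induced by interferon gamma bind the gamma-activated sequence (GAS). The genes switched on include proteins that block virus entry, bind or cut viral RNA, edit or sense RNA, and modify other proteins with ISG15. ETV6, a repressor of transcription from the ETS family, is needed for blood cell development, and R369W lies in its DNA-binding domain.

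The RefSeq promoter table (GRCh38.p14, 1 window of equal length around each gene's start) held 38 of the 47 members, and it had no entry for DHX58, IFIT2, IFITM2, IRF7, MX2, OAS2, OASL, TRIM22 or USP18. The ISRE core, spelled GAAA, any 2 bases, GAAA and searched on both strands with overlapping matches allowed, was in 24 of these 38 promoters (63.2%) and in 3.65% of all 27305 promoters. The GAS form TTCNNNGAA was in 10 of 38 (26.3%) against 7.88% of all. The ETS core CCGGAAGT was in 0 of 38 against 4.43% of all, and its shorter form GGAAGT, which lies inside it, was in 10 of 38 (26.3%) against 23.2%. A match describes letters in the window and is no evidence of binding. The stretches below come from 8 members whose values are described later, and they are not all the members called in a comparison. IFITM2 had no window, and PARP14, TRIM21, SAMD9L and SP100, also called, are not shown. In their windows SAMD9L and SP100 matched only the shorter ETS form. Capitals mark the ISRE core in the first 6 and the GAS form in the last 2. Each is read 5′ to 3′ along the gene's own strand.
IFITM1: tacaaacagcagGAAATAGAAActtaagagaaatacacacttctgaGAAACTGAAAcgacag
IFITM3: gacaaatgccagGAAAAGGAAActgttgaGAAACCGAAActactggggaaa
BST2: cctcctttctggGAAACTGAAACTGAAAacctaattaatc
IFIT3: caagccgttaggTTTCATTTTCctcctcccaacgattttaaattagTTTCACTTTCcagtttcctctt
OAS3: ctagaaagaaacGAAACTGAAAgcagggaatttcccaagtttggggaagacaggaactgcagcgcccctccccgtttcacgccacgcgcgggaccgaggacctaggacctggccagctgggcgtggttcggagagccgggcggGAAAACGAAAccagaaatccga
IFI27: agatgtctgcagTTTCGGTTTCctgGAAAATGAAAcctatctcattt
IFI35: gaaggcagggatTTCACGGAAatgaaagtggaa
IRF1: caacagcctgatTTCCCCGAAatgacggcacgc

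These stretches lie at chr11:313988-314049 (plus strand) for IFITM1, chr11:320874-320924 (minus strand) for IFITM3 and chr19:17405733-17405772 (minus strand) for BST2. Those of IFIT3 and OAS3 lie at chr10:89327829-89327896 and chr12:112938319-112938483, both on the plus strand. Those of IFI27, IFI35 and IRF1 lie at chr14:94110616-94110662 (plus), chr17:43006750-43006782 (plus) and chr5:132490877-132490909 (minus). In IFIT3 both matches read on the opposite strand, and in BST2 the 2 matches overlap each other. IFI35 and IRF1 had no ISRE core in the window.

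Gene reads ran from 12577816 to 18927506 per library, so that 3 reads, the limit that a count of 0 allows, came to 0.156 to 0.246 CPM (counts scaled to the library's gene reads, here and throughout after TMM scaling). These limits cover counting error only, because reads copied by PCR and not tagged per molecule are not independent. ETV6 itself was at 66.0 to 145 CPM in unedited EV and 39.1 to 117 CPM in knockout EV, against 1351 to 2828 CPM in the 12 libraries with either ETV6 vector, so the deposited counts per gene show the vectors but do not separate the genotypes. The 6 EV libraries stood apart in alignment, with 0.527% to 0.809% of reads not aligned against 0.279% to 0.349% in the other 12, so each comparison with EV carries that split and the 2 cannot be told apart. Of 15 megakaryocyte markers 8 had a median above 1 CPM, among those below it were GP9 and PPBP, and PF4 had no read, so the label of the line was only partly borne out by its markers. In bulk RNA, fewer cells of a type and less RNA per cell cannot be told apart.

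The interferon genes themselves gave almost no reads. Over all 18 libraries the 10 ligand genes listed summed to 17 reads: 10 from IFNK, 6 from IFNB1, 1 from IFNE and none from the other 7, IFNG among them. A receptor gene was present. IFNAR1, a subunit of the type I receptor, ran from 82.0 to 134.5 CPM over the 18 libraries.

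The members differed widely in level per length (RPKM, CPM per kilobase of exon, averaged over 18 libraries). The highest were IFITM2 at 67.2, BST2 at 55.7, UBE2L6 at 50.8, IFITM1 at 49.4 and ADAR at 41.1. IFITM2 and IFITM1 keep viruses from fusing with cell membranes, BST2 (tetherin) holds budding virions at the surface, UBE2L6 conjugates ISG15 to proteins and ADAR edits adenosine to inosine in double-stranded RNA. The lowest were IFI44L at 0.00899, OAS2 at 0.0111, MX2 at 0.0126, IRF9 at 0.0202 and MX1 at 0.0381. MX1 and MX2 are dynamin-like GTPases that trap viral particles, and IRF9 is the DNA-binding partner of STAT2. These 5 summed to 23, 17, 39, 19 and 80 reads over the 18 libraries and were not tested because their counts fell under the filter. The IRF9 count is uncertain, because 48.4% of its exon bases are shared on the same strand with AL136295.5 in GENCODE release 29.

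Of the 47 members, 42 passed the count filter and were tested among 12262 genes. The main test was edgeR's quasi-likelihood test with Benjamini-Hochberg adjustment over all these genes, called at an adjusted p under 0.05, with no term for the replicate number. A second fit carried the replicate number as a replicate block (a paired comparison), used where same-numbered libraries deviated together: in the 9 unedited libraries and in the 6 knockout libraries with EV or ETV6. Reads of IFITM1 and IFITM2 may be split uncertainly, because they share 32.5% and 22.8% of their exon bases in the annotation and belong with IFITM3 to a family of close relatives.

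Wild-type ETV6 against EV asks what added ETV6 does to the list. In unedited cells IFITM2, IFI35, BST2 and IFIT3 were lower with ETV6 in the paired comparison. These were 9.52% of the members tested, beside 8.15% of all genes called. In knockout cells these 4 and 7 further members were lower and TRIM21 was higher. Together they were 30% of the members tested there, beside 24.7% of all genes called. IFITM2 in unedited cells, numbers 2, 3 and 4, was at 78.5, 110 and 70.3 CPM with EV and at 37.8, 53.3 and 33.8 CPM with ETV6. In knockout cells, numbers 1, 2 and 4, it was at 141, 145 and 144 CPM with EV and at 75.7, 73.3 and 65.4 CPM with ETV6. Every ETV6 library lay below every EV library of its genotype.

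Without the block, edgeR called 0 of 42 members in unedited cells, where it called 0.302% of all genes; 5 members (11.9%) had an unadjusted p under 0.05, beside 4.58% of all genes, DESeq2 called 1 and limma-voom 0. The log2 difference of IFITM2 there was -1.05 (SE 0.22, adjusted p = 0.0658). It would be called without unedited EV library 4, at an adjusted p of 0.0462. With the replicate block it was -1.06 (SE 0.10, adjusted p = 2.15e-06). In knockout cells IFITM2 was the 1 member called of 42, against 1.83% of all genes, and it fell by 1.01 log2 units (SE 0.22, adjusted p = 0.0235). That call was lost without any 1 of the 6 libraries compared, at adjusted p from 0.0658 to 0.118, and with the block its adjusted p was 9.32e-07. The genotype interaction called 0 of 42 members, against 0.0245% of all genes.

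IFI35, a partner of NMI in cytokine signalling, and IFIT3, a scaffold of the RNA-binding IFIT complex, were at a few CPM. In unedited cells IFI35 was at 6.35, 9.32 and 4.49 CPM with EV and at 3.85, 4.67 and 2.26 CPM with ETV6. In knockout cells it was at 6.88, 7.76 and 7.27 CPM with EV and at 2.94, 5.06 and 3.50 CPM with ETV6. Its ranges overlapped in unedited cells and did not in knockout cells, and within each number the ETV6 library was the lower. IFIT3 was at 5.67, 8.03 and 7.5 CPM with EV and at 3.77, 5.05 and 5.80 CPM with ETV6 in unedited cells. In knockout cells it was at 8.39, 10.6 and 9.88 CPM with EV and at 4.15, 4.45 and 6.70 CPM with ETV6, with no overlap.

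With the replicate block, 4 of 42 members were called in unedited cells, all lower, beside 8.15% of all genes called (5.49% lower and 2.66% higher). IFI35 fell by 0.90 log2 units (SE 0.17, adjusted p = 0.00229). BST2 fell by 0.46 (SE 0.10, adjusted p = 0.00776) and was not called without library 3 of EV (0.0655) or of ETV6 (0.115). IFIT3 fell by 0.54 (SE 0.15, adjusted p = 0.0295) and was not called without EV library 2 (0.0977) or 3 (0.217), or ETV6 library 2 (0.0538) or 3 (0.163). IFITM2 and IFI35 were called with each library left out in turn. On the higher side TRIM21 (0.29, SE 0.17, adjusted p = 1) and PARP9 (0.16, SE 0.09, adjusted p = 1) had the smallest p in the edgeR fit without the block. The median log2 difference over the 42 members with the block was -0.07, beside 0.0037 over all genes.

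With the replicate block in knockout cells, 12 members were called of the 40 tested there (IFI27 and OASL fell under the filter), 11 lower and 1 higher. Over all genes 24.7% were called, 13.9% lower and 10.8% higher, so the members' share of calls was near the background and their split was more to the lower side. The list was drawn up with earlier results of these data known, so the split is a description and no test of the set. IFIT3 fell by 0.92 (SE 0.17, adjusted p = 0.00194) and IFI35 by 0.95 (SE 0.18, adjusted p = 0.00263) on the log2 scale. PARP14, an ADP-ribosyltransferase, fell by 0.30 (SE 0.06, adjusted p = 0.00375), and SAMD9L, a restrainer of protein synthesis and cell growth, fell by 0.50 (SE 0.11, adjusted p = 0.00557). TRIM21, a cytosolic antibody receptor, was the member that rose, by 0.50 (SE 0.10, adjusted p = 0.00395). It was at 15.0, 19.0 and 20.2 CPM with EV and at 23.9, 25.7 and 26.3 CPM with ETV6, with no overlap. IFITM2 and these 5 members (IFIT3, IFI35, PARP14, SAMD9L and TRIM21) were called with each library left out in turn.

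The STAT2 difference, next to TRIM21 on the higher side without the block, was 0.15 (SE 0.10, edgeR adjusted p = 0.576). The other 6 members that fell in knockout cells depended on single libraries. OAS3, which makes oligoadenylates on sensing double-stranded RNA, fell by 0.42 (adjusted p = 0.00481), and BST2 fell by 0.29 (adjusted p = 0.00787). IFIH1, a sensor of long double-stranded RNA, fell by 0.43 (adjusted p = 0.0103). These 3 were not called without knockout EV library 4, at adjusted p of 0.0603, 0.0527 and 0.059. TRIM22, an antiviral ubiquitin ligase, fell by 0.50 (adjusted p = 0.0077), and RSAD2 (viperin), which makes a chain-terminating nucleotide, fell by 0.55 (adjusted p = 0.00998). Both were not called without library 4 of EV (0.0719 and 0.186) or of ETV6 (0.0552 and 0.17). PLSCR1, a phospholipid scramblase that limits virus entry, fell by 0.32 (adjusted p = 0.013) and was not called without library 1 of EV (0.108) or of ETV6 (0.0962). IFIH1, PLSCR1 and SAMD9L were about as low with R369W in knockout cells. With EV, ETV6 and R369W the means were 25.3, 18.7 and 19.5 CPM for IFIH1 and 47.5, 37.9 and 37.4 CPM for PLSCR1. For SAMD9L they were 22.4, 15.6 and 15.8 CPM. The part of the alignment split of the EV libraries was not tested. The other members that fell differed by 0.15 to 1.26 log2 units for R369W against ETV6 without the block.

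The 2 genotypes share no library in this comparison. All 4 members called in unedited cells were called in the same direction in knockout cells, which is 4 of 4 of one list and 4 of 12 (33.3%) of the other. Over all 11458 genes tested in both, 74.8% of the unedited calls and 25.2% of the knockout calls were shared in this way. Over the 42 members tested without the block, 28 (66.7%) had the same sign in both genotypes, beside 67.4% of all genes. The members as a whole thus did not share their sign more often than other genes.

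Markers of other cell types moved with ETV6 against EV. The 5 monocyte markers (LYZ the 1 with a median above 1 CPM, MARCO with no read) summed to 36.1 to 38.5 CPM with EV and to 19.1 to 30.5 CPM with ETV6 in unedited cells, and to 19.9 to 29.1 and 15.0 to 17.4 CPM in knockout cells, with no overlap. The 4 B-cell markers summed to 9.49 to 15.5 CPM with EV and to 0.453 to 2.53 CPM with ETV6 in knockout cells, and to at most 0.431 CPM in these unedited groups. Their part in the members' differences was not tested.

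**Figure D1:**
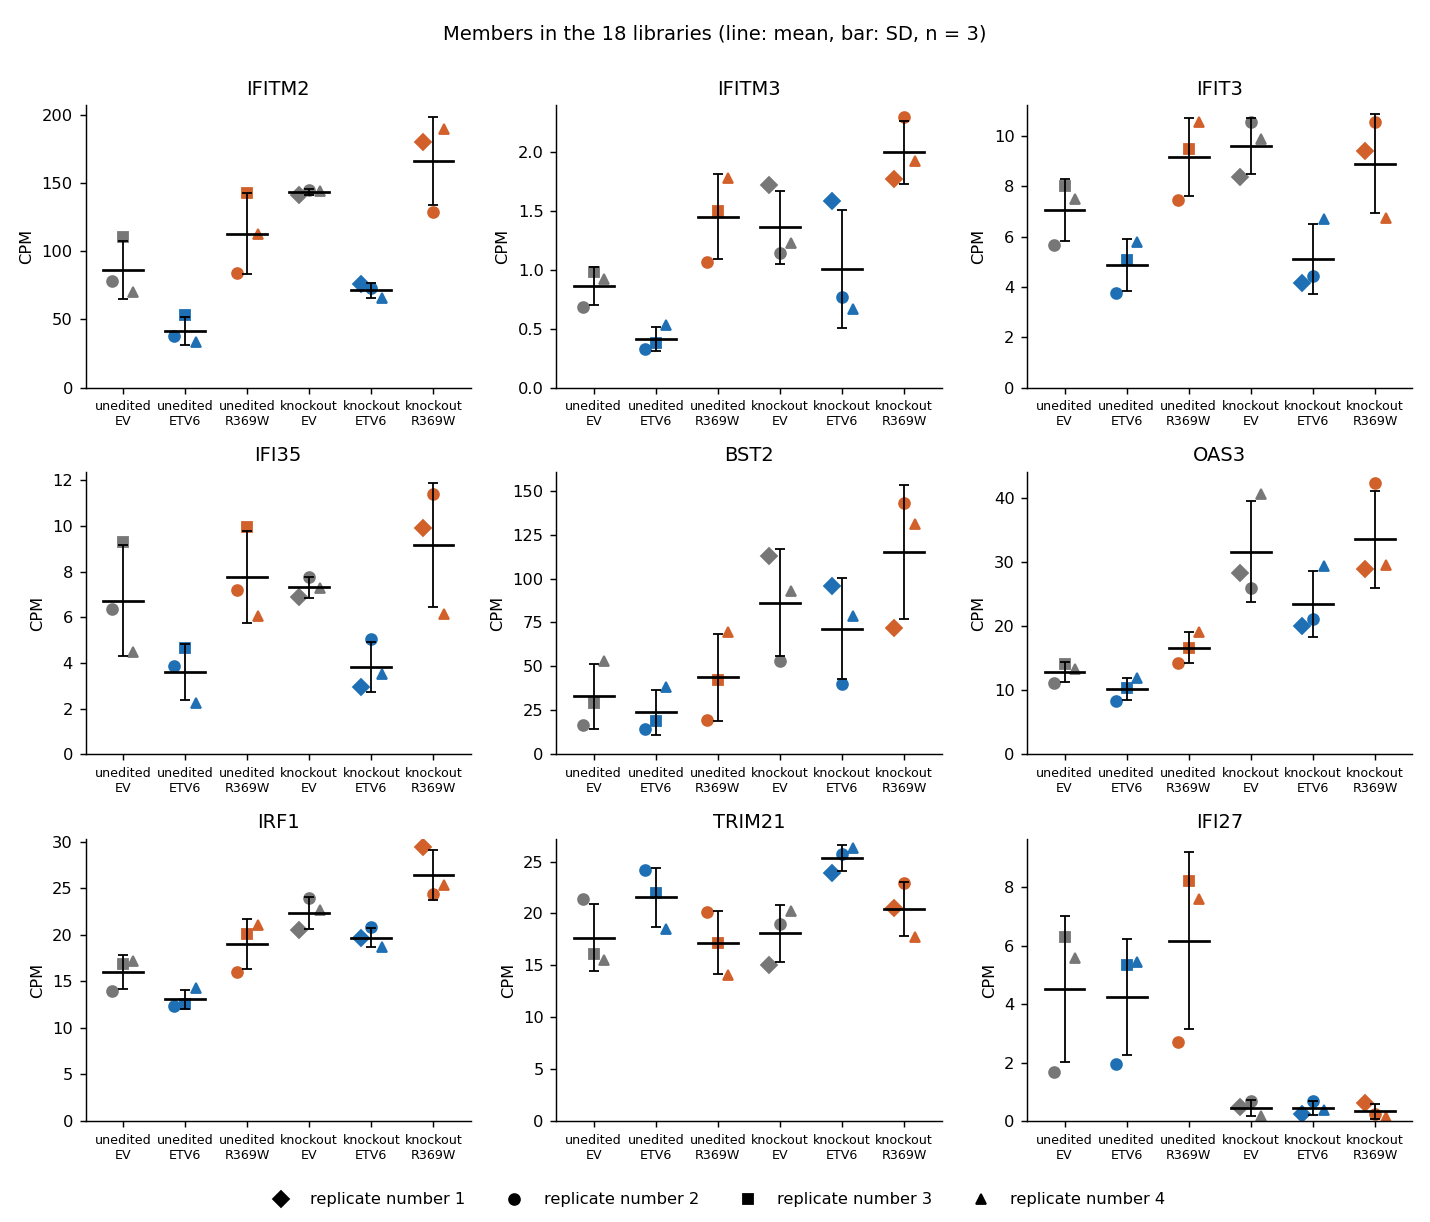
CPM of 9 members in each of the 18 libraries, with the marker shape giving the replicate number, the line the mean and the bar the SD (n = 3). IFITM2 is lower in the 3 ETV6 libraries of each genotype (33.8 to 53.3 and 65.4 to 75.7 CPM) than in the EV or R369W libraries of that genotype.

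R369W against wild-type ETV6 compares the variant with the normal protein. No EV library is among those compared, but EV libraries enter the fit's estimate of the spread. IFITM2 was higher with R369W in both genotypes, and IFITM3 was higher in unedited cells. IFITM2 was at 83.7, 143 and 113 CPM with R369W in unedited cells and at 180, 129 and 190 CPM in knockout cells, above every ETV6 library of the same genotype. It was 2.72-fold higher in unedited cells (log2 difference 1.44, SE 0.22, adjusted p = 0.00233) and 2.33-fold higher in knockout cells (log2 difference 1.22, SE 0.22, adjusted p = 0.00798). The first call held with each library left out, at adjusted p up to 0.0213, but not with these 2 groups fitted alone (0.0876). The second was lost without knockout ETV6 library 4 (0.0571).

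In unedited cells 2 of 42 members were called, both higher, where 1.2% of all genes were called. IFITM3, which acts in endosomes against entering viruses, was at 0.328, 0.377 and 0.528 CPM with ETV6 and at 1.07, 1.5 and 1.78 CPM with R369W. These are 16 and 55 reads over 3 libraries each, and the groups did not overlap. The log2 difference was 1.80 (SE 0.40, adjusted p = 0.038). It was lost without ETV6 library 2 (0.177), 3 (0.182) or 4 (0.0683), or R369W library 3 (0.126) or 4 (0.153), with limma-voom (0.0912), with no count filter (0.0607) and with the 2 groups alone (0.215). In the annotation 21.3% of its exon bases are shared with a gene on the other strand, and the strand setting of the counting is not given.

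With the replicate block, 14 of 42 members were called in unedited cells, 12 higher and 2 lower. Over all genes 16.9% were called, 10.2% higher and 6.67% lower. BST2, which varied with the replicate number, was at 14.2, 19.1 and 38.5 CPM with ETV6 and at 19.7, 42.1 and 69.5 CPM with R369W. The ranges overlapped, and within each number R369W was the higher. Its log2 difference was 0.86 (SE 0.10, adjusted p = 8.69e-06). IFI35 was at 7.22, 9.97 and 6.05 CPM with R369W, a log2 difference of 1.12 (SE 0.16, adjusted p = 0.000136). IFIT3 was at 7.46, 9.5 and 10.6 CPM with R369W, a log2 difference of 0.91 (SE 0.14, adjusted p = 0.000242). Both lay above every ETV6 library.

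OAS3 was at 8.35, 10.3 and 11.8 CPM with ETV6 and at 14.3, 16.6 and 19.0 CPM with R369W in unedited cells, with no overlap. The log2 difference with the replicate block was 0.71 (SE 0.11, adjusted p = 0.000222). IRF1, a transcription factor that itself turns on interferon-stimulated genes, was at 12.4, 12.6 and 14.2 CPM with ETV6 and at 16.0, 20.0 and 21.0 CPM with R369W. Its groups also did not overlap, and the log2 difference was 0.54 (SE 0.10, adjusted p = 0.00133). The calls of IFITM2 (adjusted p = 1.36e-08), IFITM3 (0.00317), BST2, IFI35, IFIT3, OAS3 and IRF1 in this paired fit held with each library left out in turn.

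The other 7 calls with the block were lost without single libraries, which are given here with the adjusted p without each. IFITM1 was at 8.19, 14.4 and 55.1 CPM with ETV6 and at 10.9, 18.2 and 68.2 CPM with R369W (log2 difference 0.34, adjusted p = 0.0113), and it was lost without R369W library 3 (0.0629) or 4 (0.092). TRIM22 (0.50, adjusted p = 0.014) was lost without ETV6 library 3 (0.123) or R369W library 2 (0.0606) or 3 (0.0912); it shares 10.7% of its exon bases with OR56B1 on the same strand. XAF1, an antagonist of the apoptosis inhibitor XIAP, differed by 0.82 (adjusted p = 0.0306) and was lost without ETV6 library 3 (0.227) or any R369W library (0.08 to 0.113); it shares 38.3% of its exon bases with a gene on the other strand. IFI27, a small mitochondrial membrane protein, differed by 0.54 (adjusted p = 0.0329) and was lost without ETV6 library 3 (0.208) or 4 (0.0739) or any R369W library (0.0728 to 0.134). ADAR differed by 0.16 (adjusted p = 0.0352) and was lost without ETV6 library 3 (0.195) or R369W library 3 (0.216) or 4 (0.138).

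HERC5 and TRIM21 were the 2 lower members. HERC5, the main ligase that attaches ISG15, fell by 0.34 (adjusted p = 0.0282) and was lost without ETV6 library 3 (0.197) or R369W library 3 (0.188) or 4 (0.085). TRIM21 fell by 0.34 (adjusted p = 0.0225), from 24.2, 22.0 and 18.5 CPM with ETV6 to 20.2, 17.2 and 14.1 CPM with R369W, and was lost without ETV6 library 3 (0.151) or any R369W library (0.0636 to 0.116). ISG15 itself was at 3.54 to 6.18 CPM with ETV6 and at 4.76 to 6.09 CPM with R369W and was not called.

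In knockout cells 1 of 42 members, IFITM2, was called for R369W against ETV6, where 1.23% of all genes were called. Same-numbered libraries of these groups correlated at -0.530 to -0.153 in deviations from group means, and other pairs at up to 0.828. The numbers as given therefore do not pair them, and the comparison was read without the block, unlike that in unedited cells. IFI35 was at 9.93, 11.4 and 6.16 CPM with R369W, above every ETV6 library, with a log2 difference of 1.26 (SE 0.33, adjusted p = 0.0959); DESeq2 called it (0.0206). TRIM21 and SP100, a protein of nuclear bodies, had the smallest p on the lower side, at -0.31 (SE 0.17, adjusted p = 0.489) and -0.14 (SE 0.09, adjusted p = 0.618). The same sign in both genotypes was found for 33 of 42 members (78.6%), beside 71.4% of all genes. The interaction called 0 of 42 members and 0% of all genes.

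Other measures moved with 1 or both of these 2 comparisons. In unedited cells R369W libraries had 4.32% to 4.68% of reads with a low alignment quality and 14.4% to 15.4% not uniquely aligned, against 2.17% to 3.51% and 12.0% to 13.8% with ETV6. In knockout cells these ranges overlapped, at 3.73% to 4.43% and 12.9% to 13.6% with R369W against 3.40% to 4.46% and 13.2% to 16.5% with ETV6. The 15 megakaryocyte markers summed to 1610 to 1955 CPM with R369W against 1335 to 1557 CPM with ETV6 in unedited cells, and to 1878 to 2604 against 1542 to 1851 CPM in knockout cells. The 5 monocyte markers summed to 39.8 to 48.8 against 19.1 to 30.5 CPM in unedited cells, and to 18.8 to 24.3 against 15.0 to 17.4 CPM in knockout cells. LYZ was the 1 of them with a median above 1 CPM, and MARCO had no read. The part of these measures in the members' differences was not tested.

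**Figure D2:**
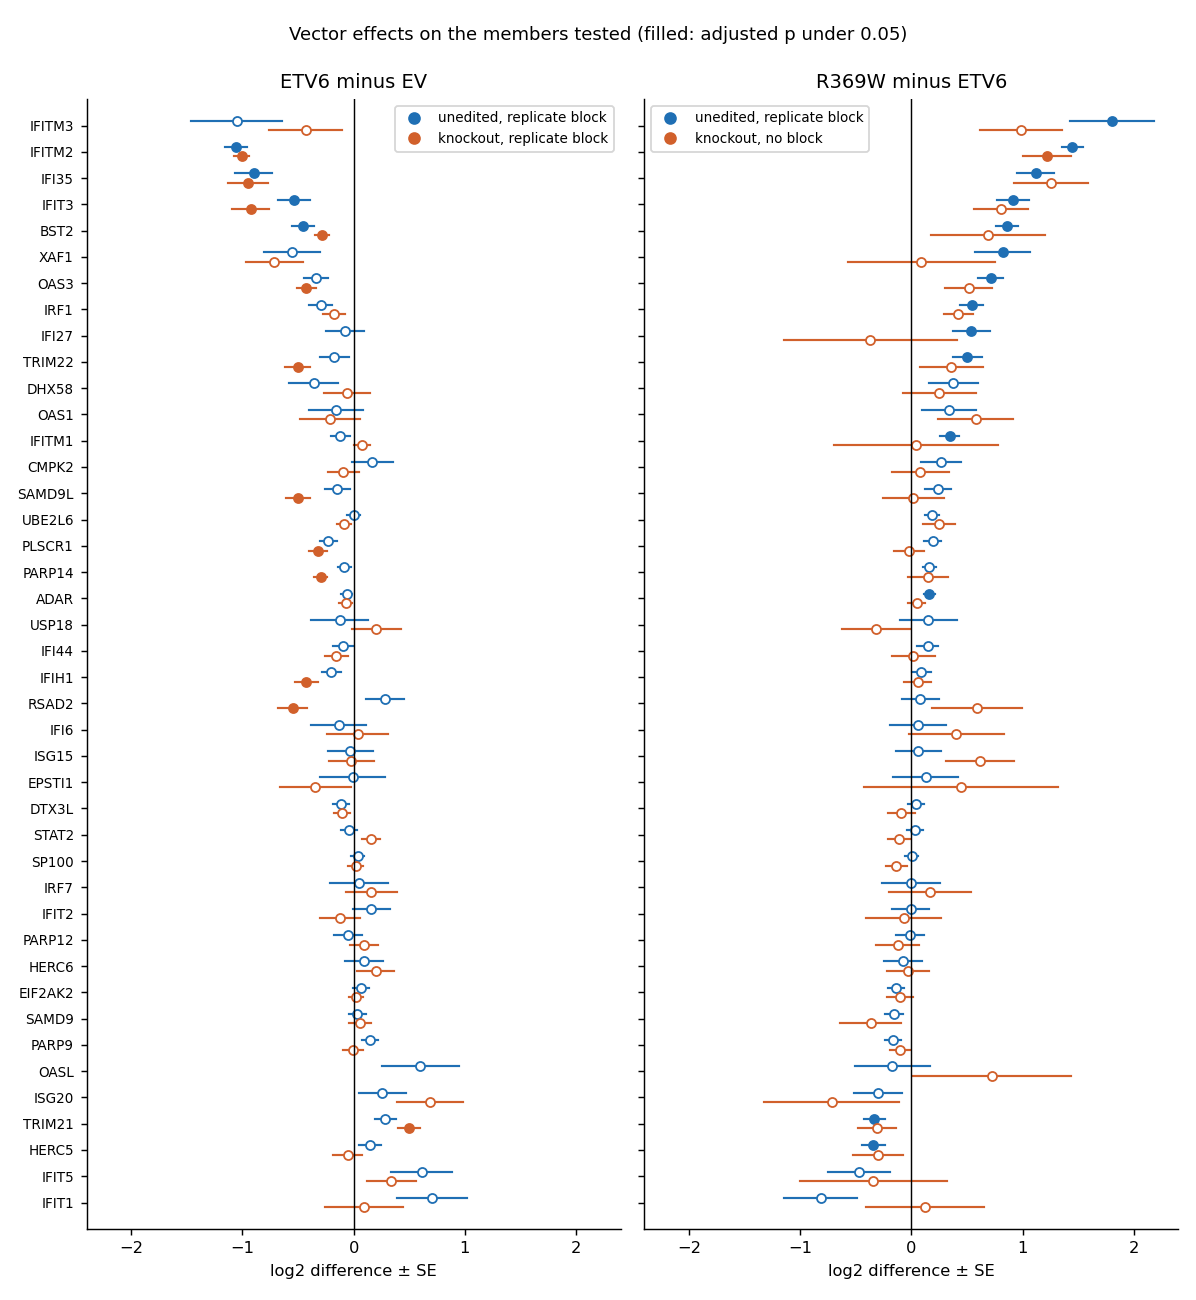
Log2 difference ± SE of each member tested, ETV6 minus EV on the left and R369W minus ETV6 on the right, with unedited cells in blue and knockout cells in orange; filled points have an adjusted p under 0.05. IFITM2 lies at -1.06 and -1.01 on the left and at 1.44 and 1.22 on the right, and most members lie near 0. The value of -1.06 is from the fit with the replicate block. That of 1.22 is from the fit without it, because R369W against ETV6 in knockout cells has no paired fit. Filled points of the 2 fits are thus not comparable in number between genotypes. The ETV6 libraries enter both sides.

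R369W against EV compares the variant with the empty vector. Without the block 0 of 42 members were called in unedited cells (0.0245% of all genes), with 0 at an unadjusted p under 0.05 (2.02% of all genes) and 0 by DESeq2 or limma-voom. In knockout cells 0 were called (0.0571% of all genes), with 3 (7.14%) at an unadjusted p under 0.05, beside 13.8% of all genes, and 0 by DESeq2 or limma-voom. In unedited cells IFITM3 (0.74, SE 0.37) and IRF1 (0.25, SE 0.13) had the smallest p on the higher side, and HERC5 (-0.19, SE 0.23) and IFIH1 (-0.11, SE 0.12) on the lower side, all at an adjusted p of 1. This comparison shares its EV libraries with ETV6 against EV and its R369W libraries with R369W against ETV6. The interaction called 0 of 42, against 0.0408% of all genes, and in each of the 3 interactions 0 members had an unadjusted p under 0.05 (1.01% to 4.24% of all genes) and DESeq2 and limma-voom called 0. The interaction estimates with the smallest p on either side (knockout minus unedited) were those of IFIH1 (-0.24), RSAD2 (-0.85), STAT2 (0.18) and IFITM3 (0.61) for ETV6 against EV. They were IFIH1 (-0.27), PLSCR1 (-0.32), ISG15 (0.60) and TRIM21 (0.22) for R369W against EV, and IFITM3 (-0.81), PLSCR1 (-0.21), ISG15 (0.56) and IFIT1 (0.96) for R369W against ETV6. Each had an edgeR adjusted p of 1.

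With the replicate block in unedited cells, 2 of 42 members were higher with R369W than with EV, beside 2.14% of all genes called (1.79% higher and 0.349% lower). IFITM2 was higher by 0.39 log2 units (SE 0.09, adjusted p = 0.0294), and it was lost without EV library 3 (0.166) or 4 (0.238) or R369W library 3 (0.187) or 4 (0.235). BST2 was at 16.8, 29 and 52.9 CPM with EV, a log2 difference of 0.40 (SE 0.09, adjusted p = 0.0313). It was lost without EV library 2 (0.115), 3 (0.186) or 4 (0.163), or R369W library 3 (0.356) or 4 (0.152). Both genes lay above EV within every number.

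In knockout cells the smallest p were those of IFIH1 and PLSCR1 on the lower side. IFIH1 was at 22.9, 27.9 and 25.2 CPM with EV and at 21.2, 20.7 and 16.6 CPM with R369W (log2 difference -0.37, SE 0.12, adjusted p = 0.26). PLSCR1 had a log2 difference of -0.35 (SE 0.13, adjusted p = 0.292). On the higher side were ISG15 at 0.65 (SE 0.30, adjusted p = 0.36) and IRF1 at 0.24 (SE 0.13, adjusted p = 0.424). None of these 4 was called.

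Knockout against unedited cells was compared within each vector. OAS3 was higher in knockout cells and IFI27 lower with all 3 vectors, IRF1 was higher with EV and with ETV6, and SP100 was lower with R369W. Of 42 members 3 were called with EV (4.33% of all genes), 3 with ETV6 (2.53%) and 3 with R369W (4.18%). These 3 comparisons share no library, but they are not independent. Same-numbered libraries deviated together across the vectors in unedited cells, and between EV and ETV6 in knockout cells.

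OAS3 was at 11.0, 14.1 and 13.3 CPM in unedited EV and at 28.2, 26.0 and 40.6 CPM in knockout EV. With ETV6 knockout cells had 20.0, 21.0 and 29.4 CPM, and with R369W they had 28.8, 42.3 and 29.5 CPM. No knockout library overlapped an unedited library of the same vector. The rise was 2.46-fold with EV (log2 difference 1.30, SE 0.22, adjusted p = 0.00252), and this call held with each library left out, at adjusted p up to 0.02. It was 2.30-fold with ETV6 (log2 1.2, SE 0.22, adjusted p = 0.00967; lost without unedited ETV6 library 2, 0.0522). It was 2.02-fold with R369W (log2 1.01, SE 0.21, adjusted p = 0.0184; lost without unedited R369W library 2, 0.0908, or 3, 0.0556, or knockout R369W library 2, 0.103). With the 2 groups fitted alone the ETV6 and R369W calls were lost (0.0702 and 0.0782).

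No other OAS member was called between genotypes. OAS1, a smaller relative of OAS3 at the neighbouring locus, had log2 differences of -0.09, -0.15 and 0.08 with EV, ETV6 and R369W. Those of OASL were 0.0063, -0.81 and 0.08. OAS2 gave 17 reads in all 18 libraries.

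IFI27 was at 1.66, 6.29 and 5.60 CPM in unedited EV and at 0.469, 0.685 and 0.153 CPM in knockout EV. With ETV6 it was at 1.97, 5.35 and 5.43 CPM in unedited and at 0.226, 0.690 and 0.372 CPM in knockout cells. With R369W it was at 2.71, 8.23 and 7.60 CPM and at 0.616, 0.230 and 0.148 CPM. Knockout cells were thus near the limit of detection, with 20, 17 and 13 reads over 3 libraries in the 3 vector groups, and no groups overlapped. Its log2 difference was -3.34 with EV (SE 0.70, adjusted p = 0.0119), -3.28 with ETV6 (SE 0.71, adjusted p = 0.0247) and -4.19 with R369W (SE 0.73, adjusted p = 0.00577). The EV call was lost without knockout EV library 1 (0.0574) or 4 (0.0643). The ETV6 call was lost without unedited ETV6 library 3 (0.0751) or 4 (0.0691) or knockout ETV6 library 1 (0.115) or 4 (0.108). The R369W call held with each library left out. With limma-voom all 3 calls were lost, at adjusted p of 0.0849, 0.129 and 0.0537 for EV, ETV6 and R369W. With the 2 groups fitted alone those with EV (0.0692) and ETV6 (0.0707) were lost.

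IRF1 was at 13.9, 16.9 and 17.2 CPM in unedited EV and at 20.5, 23.9 and 22.7 CPM in knockout EV, a log2 difference of 0.48 (SE 0.13, adjusted p = 0.0472). That call was lost without any 1 of the 6 libraries, at adjusted p from 0.0698 to 0.224. With ETV6 it was at 19.6, 20.8 and 18.7 CPM in knockout cells (log2 0.59, SE 0.13, adjusted p = 0.0263; held without unedited ETV6 library 4 and lost without each of the other 5, 0.0614 to 0.101). With R369W it was at 29.4, 24.4 and 25.3 CPM in knockout cells (log2 0.47, SE 0.13, adjusted p = 0.051), and 3 alternatives, DESeq2 among them, called it. The EV and ETV6 calls were lost with no count filter (0.1 and 0.051) and with the 2 groups alone (0.152 and 0.134). No groups overlapped with any vector. IRF1 shares 22% of its exon bases with genes on the other strand, and the strand setting of the counting is not given.

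SP100 was at 134, 127 and 136 CPM in unedited and at 114, 96.8 and 99.1 CPM in knockout cells with R369W, with no overlap. It fell by 0.35 log2 units (SE 0.09, adjusted p = 0.0473), and the call was lost without each library but knockout R369W library 1, at adjusted p up to 0.188. It was also lost with no count filter (0.0637), with limma-voom (0.0527) and with the 2 groups alone (0.196). With EV its log2 difference was -0.19 (SE 0.09, adjusted p = 0.315). IFIH1 with ETV6 was at -0.30 (SE 0.12, adjusted p = 0.205). BST2 was above unedited in every knockout library of each vector, but narrowly. Its lowest knockout and highest unedited libraries were at 52.98 and 52.89 CPM with EV and at 40.18 and 38.45 CPM with ETV6. With R369W they were at 71.76 and 69.48 CPM. BST2 also varied with the replicate number, and the genotypes do not hold the same numbers. With edgeR adjusted p of 0.163, 0.126 and 0.138 for EV, ETV6 and R369W it was not called.

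Markers of other cell types also differed between genotypes. The 4 B-cell markers, none with a median above 1 CPM, summed to 9.49 to 15.5 CPM in knockout EV, 0.453 to 2.53 with ETV6 and 0.842 to 4.70 with R369W, and to at most 0.853 CPM in unedited cells, with MS4A1 at 0 reads in all 18 libraries. The 5 monocyte markers were lower in knockout cells with every vector and no overlap, at 19.9 to 29.1 against 36.1 to 38.5 CPM with EV, 15.0 to 17.4 against 19.1 to 30.5 with ETV6 and 18.8 to 24.3 against 39.8 to 48.8 with R369W. The part of these differences in the genotype results was not tested. Plasmacytoid dendritic cells, the classic makers of interferon, were looked for by 5 markers, of which CLEC4C and LILRA4 had no read and GZMB had a median under 1 CPM. The other two, IL3RA and TCF4, were above it, and the 5 summed to 83.9 to 159.7 CPM over the 18 libraries. The 5 T and NK markers summed to at most 1.19 CPM.

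**Figure D3:**
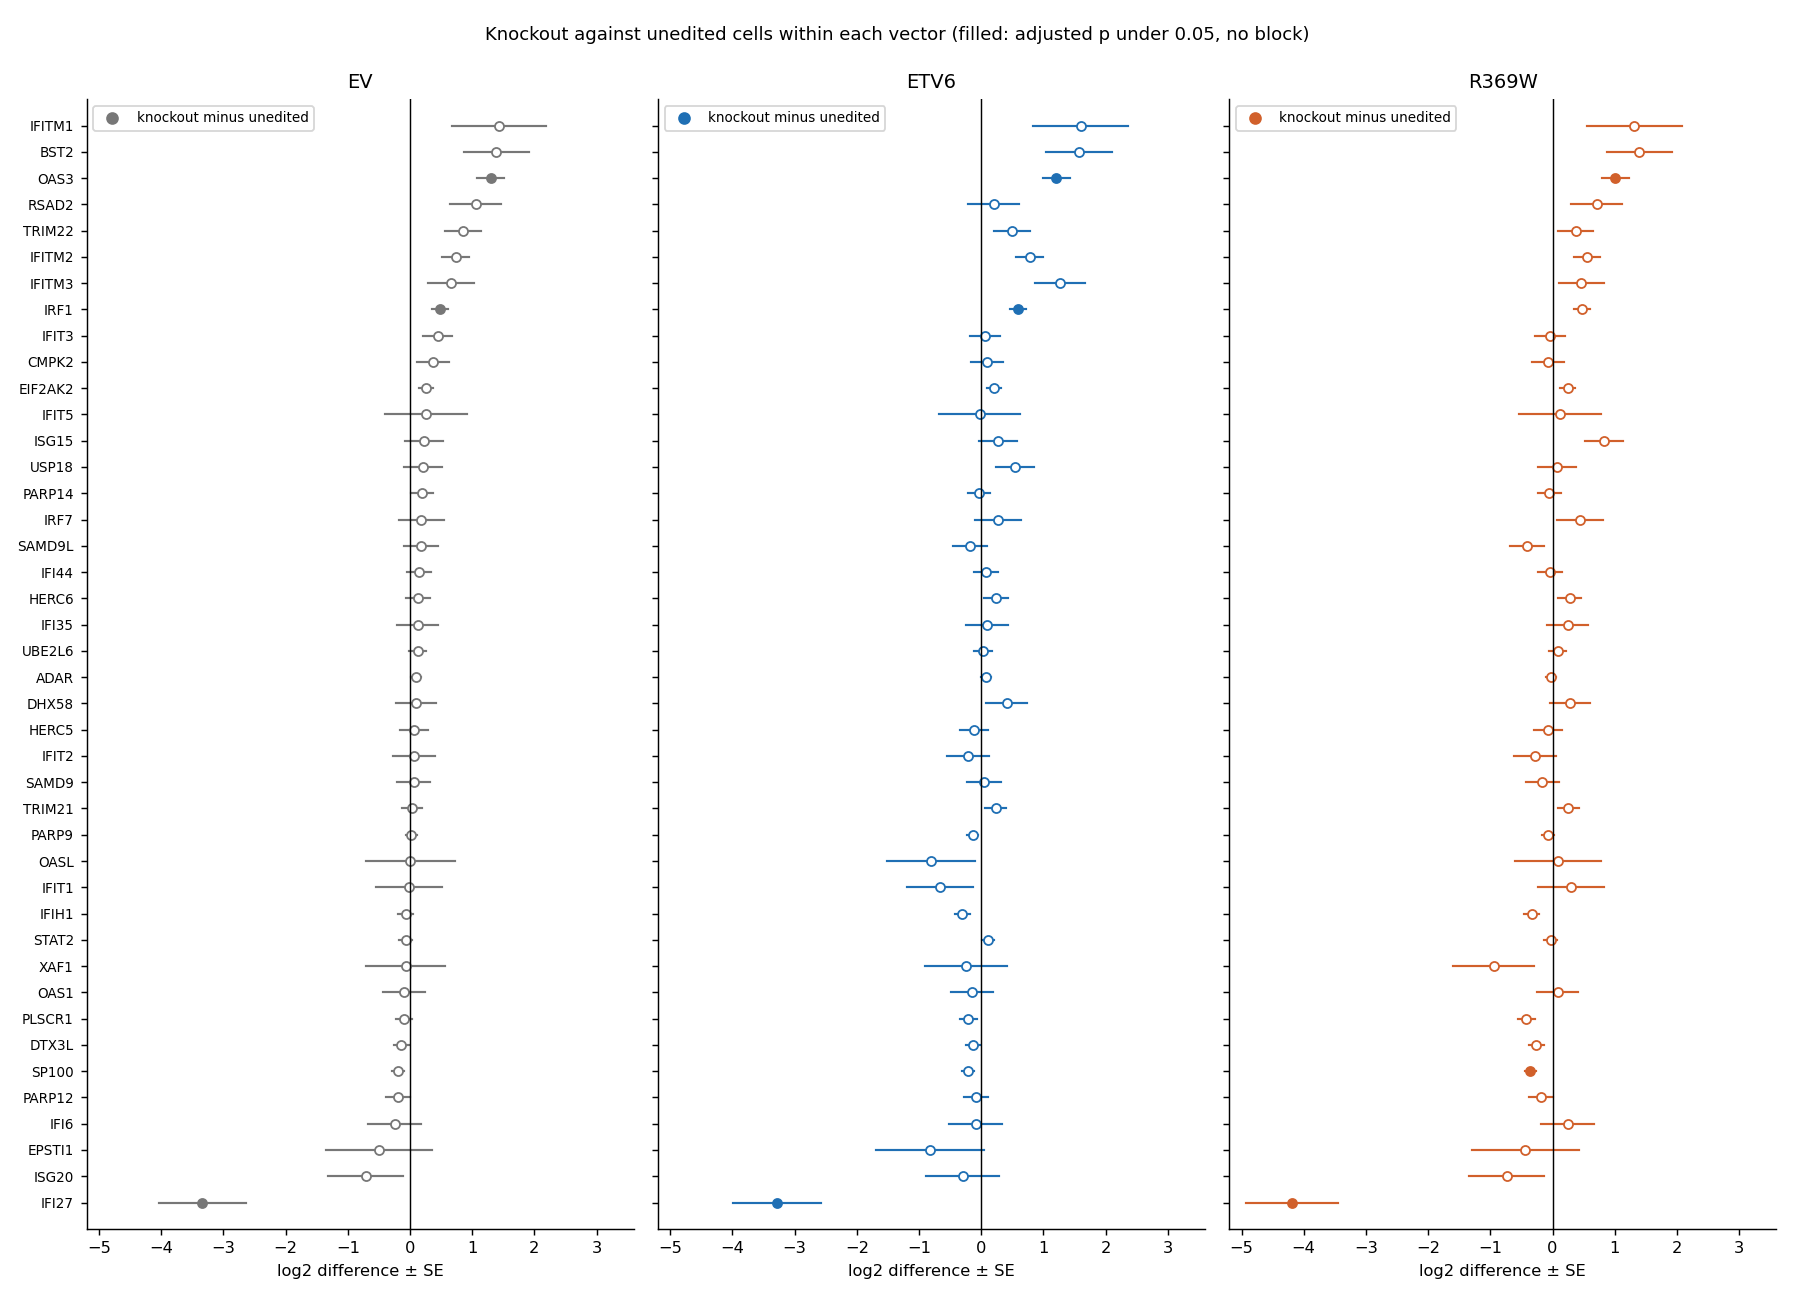
Log2 difference ± SE, knockout minus unedited, of the 42 members tested with EV, ETV6 and R369W; filled points have an adjusted p under 0.05. OAS3 (1.30, 1.2 and 1.01) and IFI27 (-3.34, -3.28 and -4.19) are filled in all 3 panels, and BST2 and IFITM1 lie far from 0 with wide errors.

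The replicate number went with large differences in some members. IFITM1 in unedited cells was at 8.19 to 10.9 CPM in the 3 libraries numbered 2, at 14.4 to 18.2 CPM in those numbered 3 and at 55.1 to 68.2 CPM in those numbered 4. Its number means spanned 2.56 on the log2 scale, against 0.34 for its vector means. IFIT5 (1.82), EPSTI1 (1.78), BST2 (1.61), IFI27 (1.45), XAF1 (1.40) and ISG20 (1.34) also spanned more than 1. These 7 members are 16.7% of the 42 tested, beside 8.99% of all genes (1102 of 12262). EPSTI1 in the 3 libraries numbered 2 was at 0.409 to 1.23 CPM.

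The span between numbers exceeded that between vectors in 32 of 42 members and in 9069 of 12262 genes. The median span was 0.46 for the members and 0.31 for all genes. In the knockout cells IFITM1 was at 88.5, 48.2 and 87.2 CPM with EV, numbers 1, 2 and 4, and at 102, 51.2 and 82.7 CPM with ETV6. With R369W it was at 55.2, 77.7 and 110 CPM, so the low library was numbered 1 there and 2 with the other vectors.

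**Figure D4:**
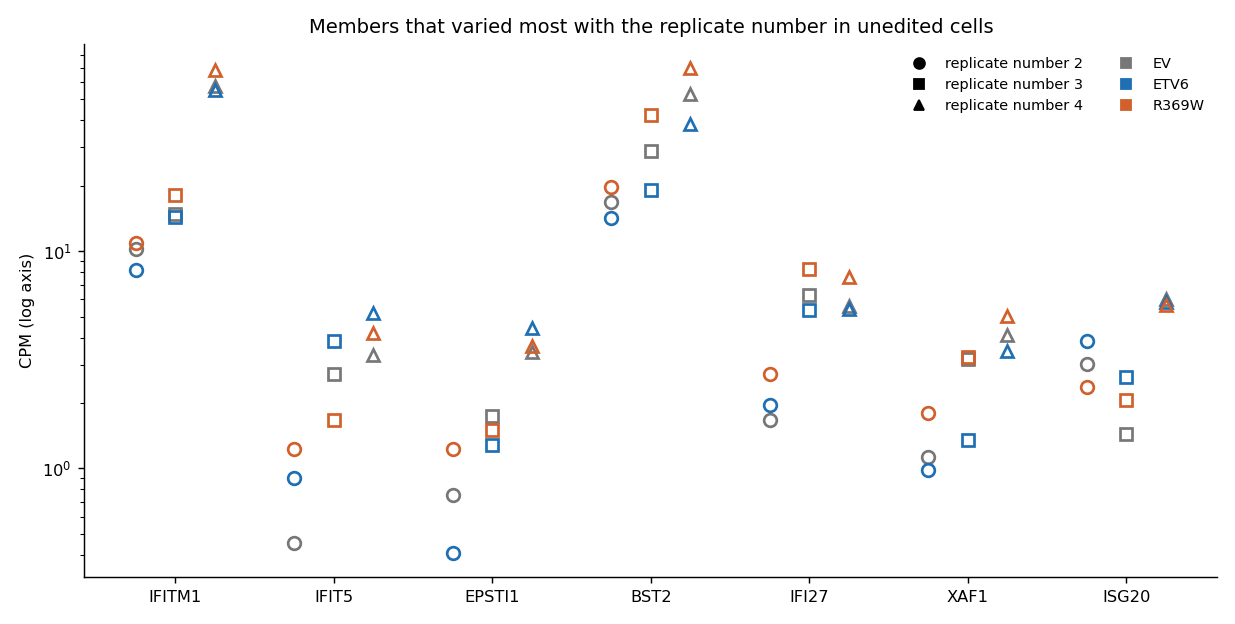
CPM on a log axis of the 7 members whose number means spanned more than 1 on the log2 scale in unedited cells, with shape for the replicate number and color for the vector. IFITM1 separates by number (8.19 to 10.9, 14.4 to 18.2 and 55.1 to 68.2 CPM), with the 3 vectors of a number close together.

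Summed over the 47 members, the CPM ran from 1340 to 1433 in unedited EV, 1230 to 1404 with ETV6 and 1361 to 1594 with R369W. In knockout cells the sums were 1543 to 1743, 1370 to 1552 and 1627 to 1688 CPM. ETV6 libraries lay below the R369W libraries of knockout cells, while the ranges of unedited cells overlapped. ADAR, at 352 to 446 CPM, took the largest share of the summed reads.

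Other genes of the interferon pathway, listed by role, give the setting. Of the 111 that were looked up and found, 100 had any read and 83 were tested. For ETV6 against EV without the block 1 of 83 was called in unedited cells, lower, and 2 in knockout cells, 1 lower and 1 higher, beside 0.302% and 1.83% of all genes. For R369W against ETV6 3 were called in unedited cells and 1 in knockout cells, all higher, beside 1.2% and 1.23% of all genes. APOL1, an interferon-induced lipoprotein component that kills trypanosomes, was in all 4 counts. It was at 26.2 to 33.2 CPM with ETV6 against 50.1 to 66.4 CPM with EV and 75.2 to 89.5 CPM with R369W in unedited cells, with no overlap. In knockout cells it was at 25 to 29.4, 66.1 to 88.5 and 69.9 to 93.6 CPM with ETV6, EV and R369W.

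APOL1 fell by 0.98 (SE 0.15, adjusted p = 0.00715) and by 1.47 (SE 0.15, adjusted p = 4.39e-05) log2 units with ETV6 against EV, the first value for unedited and the second for knockout cells. The other genes called were STING1, an adaptor of DNA sensing, and TNFSF10, the death ligand TRAIL, both higher with R369W than with ETV6 in unedited cells, and STAT3, higher with ETV6 than with EV in knockout cells. With the replicate block 13 of 79 pathway genes were called for ETV6 against EV in unedited cells, 12 lower and 1 higher, where 8.15% of all genes were called. For R369W against ETV6 25 of 79 were called, 24 higher and 1 lower, where 16.9% of all genes were. In knockout cells 26 of 83 were called for ETV6 against EV, where 24.7% of all genes were, 20 lower and 6 higher, among them GBP2 on the higher side.

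Between genotypes 6 of 83 pathway genes were higher in knockout cells with EV, 4 with ETV6 and 5 with R369W, and none was lower, beside 4.33%, 2.53% and 4.18% of all genes called in either direction. HLA-B, a class I antigen-presenting molecule with close relatives that may share reads, was at 15.2 to 28.8 CPM in unedited EV and at 65.7 to 109.8 CPM in knockout EV. NLRC5, the activator of class I genes, was at 6.95 to 12.8 and 16.1 to 23.3 CPM. HLA-B and NLRC5 were called with all 3 vectors, and so was SLFN11, which changed most. SLFN11 was at 0.158 CPM or less in unedited libraries and at 4.91 to 86.75 CPM in knockout libraries. TNFSF10 was called with EV and ETV6, PSMB8 with EV and R369W, IKBKE with EV and HLA-C with R369W. No receptor and none of the kinases and STATs listed was called between genotypes.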

How the data were processed

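The authors deposited raw counts, whole reads per gene, for 18 libraries. The submitters' processing notes name HISAT2, SAMtools, HTSeq and GRCh38; versions, the annotation and the strand setting were not stated there or in the labels. Per the labels, libraries followed a stranded TruSeq mRNA protocol. The 5 entries for reads given to no gene held 34.4% to 41.6% of reads and stayed out of library sizes and tests. Of 20833 identifiers 20801 were named from a gene name table and 31 from GENCODE release 29, which gave exon lengths and overlaps. A second deposited file, of library totals, was not used.

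Counts were tested with edgeR 4.0.16 in R 4.3.3 (filterByExpr, TMM, quasi-likelihood F test, two-sided, 1 mean per group over 18 libraries, Benjamini-Hochberg over 12262 genes, threshold 0.05). SE is the log2 difference divided by the square root of F. Alternatives were DESeq2 1.42.0, limma-voom (limma 3.58.1), DESeq2 size factors, no filter, the compared groups alone, each library left out, and the replicate block. The steps were tested on simulated data. Same-numbered libraries of different vectors correlated, in deviations from group means, at 0.695 to 0.856 in unedited cells (other pairs -0.583 to 0.0424) and at 0.763 to 0.847 between knockout EV and ETV6 (other pairs -0.619 to -0.133). The pairing comes from these correlations, since the labels give numbers without their meaning. A member got full values when past the threshold in either fit; the 2 smallest p in each direction per comparison and the 5 highest and 5 lowest levels per length were also named. The members and lists were chosen with earlier results of these data known.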

Additional observations from a re-analysis of the deposited data

How the results depend on the processing

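The counts of members called moved as follows. For ETV6 against EV in unedited cells DESeq2 called 1 and the replicate block 4, against 0; leaving out 1 library gave 0 to 1, and 2 to 5 with the block. For R369W against EV in unedited cells the block gave 2 against 0, and 0 to 2 with 1 library left out. For R369W against ETV6 in unedited cells the count of 2 became 1 with no count filter, 4 with DESeq2, 1 with limma-voom, 0 with the 2 groups alone and 14 with the block; without 1 library it was 1 to 3, and 7 to 14 with the block. In knockout cells ETV6 against EV gave 3 with DESeq2 and 12 with the block, against 1 (0 to 1 without 1 library, 7 to 13 with the block), and R369W against ETV6 gave 2 with DESeq2 against 1 (0 to 1). Between genotypes the count of 3 became 1 with EV alone as 2 groups (1 to 3 without 1 library). With ETV6 it became 0 with the 2 groups alone and 0 with a block of numbers 2 and 4 (1 to 2). With R369W it became 5 with DESeq2, 1 with the 2 groups alone and 6 with that block (1 to 3). Where a fit leaves out a library, tests pool the spread over all groups. The cause of these moves was not tested.

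Signs reversed, without a call, with 1 library left out in 4 results. BST2 with ETV6 against EV ran from -0.98 to 0.065 in unedited cells (0.065 without EV library 4) and from -0.54 to 0.0121 in knockout cells (0.0121 without ETV6 library 2). BST2 with R369W against EV in unedited cells ran from -0.0945 (without R369W library 4) to 0.93. IFITM1 with R369W against ETV6 in unedited cells ran from -0.83 (without R369W library 4) to 1.52, and was -0.10 without ETV6 library 2. The block over 9 knockout libraries changed no count; R369W libraries there correlated at -0.581 to -0.153 with the same numbers and at up to 0.872 with others. Between genotypes, same-numbered libraries correlated at 0.438 to 0.467 with EV (other pairs up to 0.295) and at 0.421 to 0.427 with ETV6 (up to 0.303). The block of numbers 2 and 4 lost IFI27 (adjusted p = 0.157) and IRF1 (0.121) with EV and called IFITM2 (0.0406). With ETV6 it lost OAS3 (0.0605), IFI27 (0.189) and IRF1 (0.155). With R369W it added BST2 (0.0312), SAMD9L (0.0359) and PLSCR1 (0.0398) to the 3 calls. The numbers did not pair the R369W libraries between genotypes, though. Same-numbered ones correlated at -0.311 to 0.185 and other pairs at up to 0.382. Beyond these and the calls already given, the replicate block changed no call of a member. Depth limits the 5 untested members and IFITM3 and IFI27.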
